A study of Mus musculus with 32 samples.

Results

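The amygdala libraries of mice given 4-thiouridine (4sU), a uridine analogue that cells build into new RNA, were compared between chronic and acute stress. Members were chosen by their labels: 4 libraries were labelled chronic stress with 4sU and 5 acute stress with 4sU, which makes 9 of the 32 libraries of the series. All came from wild-type mice whose amygdala was injected stereotaxically with 100 mM 4sU in DMSO, and RNA of the amygdala of both sides was taken 24 h later and alkylated. The same layout with DMSO in place of 4sU gave 3 chronic stress and 5 acute stress libraries, called the DMSO arm here. Mice with no stress gave 4 baseline libraries with DMSO and 5 with 4sU. The kind and length of each stress, the strain, sex and age of the mice, and whether each library is 1 animal are not stated by the labels. The p-values therefore measure the spread between these libraries, which may be partly technical. Each library was measured as counts of reads over exons per gene, given below as counts scaled to library size (CPM), and as T-to-C conversions in reads of 3' untranslated regions (UTRs), where alkylated 4sU is read as C.

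Stress raises circulating glucocorticoids, which bind the glucocorticoid receptor. The receptor enters the nucleus and switches on genes such as Fkbp5, Sgk1, Tsc22d3, Ddit4 and Per1 at DNA sites called glucocorticoid response elements. In the amygdala, a region that assigns emotional value to stimuli, neuronal activity also switches on immediate early genes within minutes. Myelin, made by oligodendrocytes, and synaptic genes are other groups often followed after stress.

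The promoters of 4 glucocorticoid-induced genes are shown because each matches the loose letters of a glucocorticoid response element, whose full form is 2 mirrored half-sites around 3 free bases. Bases are those of RefSeq (GRCm38.p6), 5' to 3' on the strand of the gene, with the searched letters GNACANNNTGTNC in capitals. The search letters read the same on both strands, so 1 search covers both; the matches themselves need not be mirrored.
Sgk1, chr10:21993694-21993722, plus strand: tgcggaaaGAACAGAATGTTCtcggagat
Map3k6, chr4:133240629-133240657, plus strand: gaatagggGCACAGGCTGTTCcggaagtg
Mt1, chr8:94178987-94179015, plus strand: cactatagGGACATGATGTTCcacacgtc
Txnip, chr3:96557777-96557805, plus strand: cgctaggaGCACACCGTGTCCacgcgccc
These letters stood in 4 of 41 promoter windows (9.76%) of the 28 glucocorticoid-induced genes that could be matched, of 32 measured. The full form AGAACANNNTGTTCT, which includes the shorter letters, stood in the window of Sgk1 alone among these genes and in 0.00913% of all windows. The shorter letters stood in 0.475% of all 32851 windows of the same 300 bases (250 before and 50 after the annotated start). Among 39 windows of immediate early genes 1 held them (2.56%). A match describes the letters only, and a window without one says nothing about binding.

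The libraries differed in ways that run along the chronic against acute comparison. The headers of the conversion tables number the libraries in 2 separate sequences. Chronic stress 4sU libraries stand in the sequence that also numbers all DMSO libraries, and acute stress 4sU libraries stand in the sequence of the baseline 4sU libraries. The UTR share, the percentage of a library's reads that fell in annotated 3' UTRs, was 18.7, 18.7, 20.0 and 20.3% in chronic stress 4sU libraries and 16.1, 16.7, 16.7, 16.5 and 17.4% in acute stress 4sU libraries. All 4 chronic libraries lay above all 5 acute ones, at 19.4 ± 0.847% and 16.7 ± 0.467% (SD), a difference of 2.74 percentage points (exact permutation test, two-sided p = 0.0159, the smallest that 4 against 5 allows). That the groups differ in UTR share was known before the test, so this p-value is no independent evidence. Over all 26 amygdala libraries the sequence with the chronic 4sU libraries spanned 18.2 to 23.9% and the other 16.1 to 17.4%. The stress label and the header sequence cannot be told apart within the 4sU libraries. The baseline libraries cross the same sequences without stress, so their contrast, coded as baseline DMSO minus baseline 4sU, is given beside the results, although it also carries the injection. Exon counts per library ran from 16150316 to 21228741. Prkcd, a marker of central amygdala inhibitory neurons, ranged over 38.6–57.0 CPM in chronic and 31.4–86.0 CPM in acute stress 4sU libraries.

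**Figure D1:**
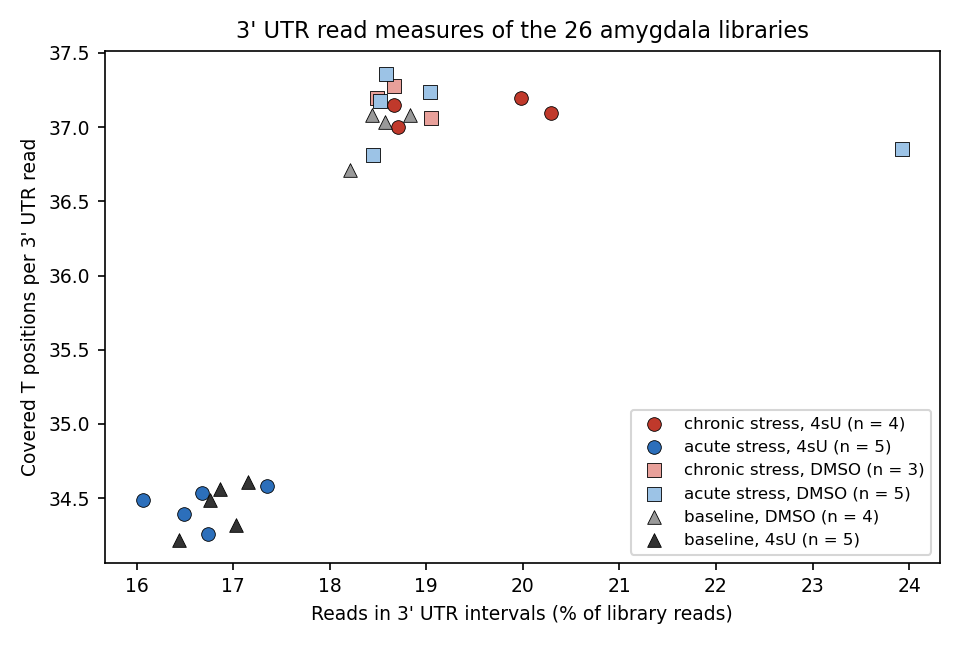
Each point is 1 of the 26 amygdala libraries, marked by group; the horizontal axis is the share of library reads in 3' UTR intervals (percent) and the vertical axis the number of covered T positions per 3' UTR read. Chronic stress 4sU libraries lie with the DMSO libraries at 36.7 to 37.4 T per read, and acute stress 4sU libraries lie with the baseline 4sU libraries at 34.2 to 34.6.

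Of 16310 genes tested in 4sU libraries (edgeR quasi-likelihood test, Benjamini-Hochberg adjusted p under 0.05), 3897 (23.9%) were higher and 3803 (23.3%) lower after chronic than after acute stress. Of these 7700 calls (47.2% of the genes), 785 exceeded 1 on the log2 scale. In the DMSO arm 116 genes (0.711%) were higher and 175 (1.07%) lower, a total that ran from 45 to 638 when single libraries were left out. A fit of the 2 DMSO groups alone called 0 genes by edgeR, with 1020 at an unadjusted p under 0.05, and DESeq2 on all groups called 544. The baseline contrast called 3623 genes higher (22.2%) and 3411 lower (20.9%) in baseline DMSO than in baseline 4sU libraries, with no stress in either. Of the 7700 calls in 4sU libraries, 5967 (77.5% of them and 84.8% of the 7034 baseline calls, which are 43.1% of the genes) had the same direction in the baseline contrast and 4 the opposite. With the DMSO arm 104 calls were shared in direction (1.35% of the 7700 and 35.7% of the 291) and 65 were opposite. The difference between the arms itself was called for 2734 genes upward (16.8%) and 2383 downward (14.6%). A fit of all 26 libraries with terms for stress, injection and header sequence is called the additive fit below. It left 52 higher (0.319%) and 113 lower genes (0.693%), of which 159 were also called in the DMSO arm. Only chronic stress 4sU libraries combine 4sU with the header sequence of the DMSO libraries, so the injection term absorbs them. The additive fit thus takes its chronic side from the chronic DMSO libraries and is no separate reading of the chronic 4sU libraries. Across genes, which are not independent replicates, the fold changes in 4sU libraries correlated with the baseline contrast at r = 0.78 and with the DMSO arm at r = 0.03. Setting each 4sU group against the baseline group of its own header sequence left 0 genes by edgeR's adjusted p, while 684 passed an unadjusted p under 0.05 and DESeq2 called 18. That setting carries the injection on the chronic side only, where 4sU libraries stand against baseline DMSO ones.

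**Figure D2:**
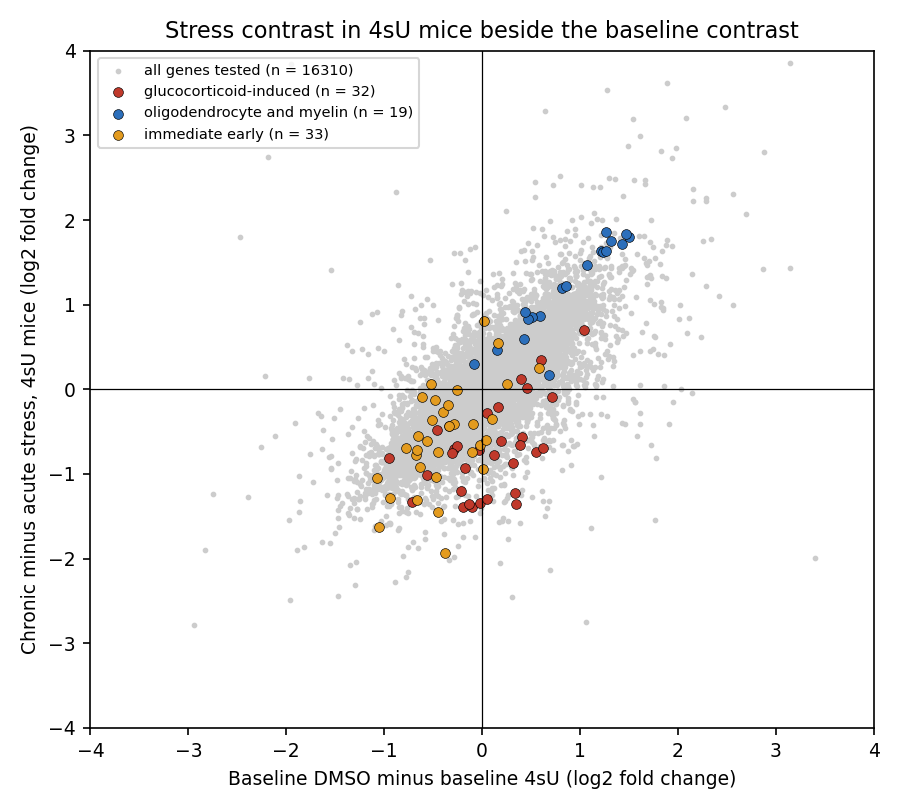
Each point is 1 gene; the vertical axis is the log2 fold change of chronic over acute stress in 4sU libraries and the horizontal axis that of baseline DMSO over baseline 4sU libraries, with 3 gene lists in colour and 1 gene beyond the axes. Genes lie along the rising diagonal, the oligodendrocyte list at its upper end (medians 1.22 and 0.85), while the glucocorticoid-induced list lies low near the middle of the horizontal axis (medians -0.73 and 0.05).

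Glucocorticoid-induced genes were lower after chronic than after acute stress in 4sU libraries. Of 32 tested, 22 fell and 1 rose, with a median log2 fold change of -0.73 over the 32 against 23.3% of all genes called lower. Of these 32, 20 fell and none rose in the DMSO arm (1.07% of all genes lower), with a median of -0.96, and 15 fell in both arms. In the baseline contrast 5 were higher and 4 lower, with a median of 0.05. The additive fit, whose chronic side is the chronic DMSO libraries, called 18 lower and none higher with a median of -0.96, so it largely repeats the DMSO arm. Against each group's own baseline the median was -0.78 with 31 of 32 values below 0, and, as for all genes in that fit, no call passed. The earlier work on these data had already shown this list to be lower after chronic stress, so its direction is no independent evidence. The mean log2 CPM score of the list was 4.56 to 4.94 in chronic and 5.41 to 5.56 in acute stress 4sU libraries, with no overlap.

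Nfkbia (chr12:55489409-55492647, mm10), which encodes the NF-kappaB inhibitor alpha, had 21.1, 16.4, 26.1 and 19.9 CPM in chronic stress 4sU libraries, against 57.0, 57.6, 50.1, 55.4 and 54.3 CPM in acute ones. Every chronic library was below every acute one, as was the case for 21.7% of all genes tested, while 21.4% had every chronic library above. The log2 fold change was -1.39 ± 0.17 (SE, adjusted p = 2.3e-07), and it was -1.17 in the DMSO arm and -0.10 in the baseline contrast. Ddit4 (chr10:59949675-59951770), an inhibitor of mTORC1, had 44.6, 40.9, 62.6 and 46.5 CPM in chronic stress 4sU libraries and 127, 141, 120.5, 122 and 129 CPM in acute ones. The groups did not overlap, and the log2 fold change was -1.39 ± 0.17 (SE, adjusted p = 3.5e-07) with -1.51 in the DMSO arm. Fkbp5 (chr17:28398753-28486149), a co-chaperone that lowers the receptor's hormone affinity, had 45.9, 61.9, 64.2 and 55.4 CPM in chronic stress 4sU libraries and 113, 116, 101, 108 and 104 CPM in acute ones. It too separated the groups completely, with a log2 fold change of -0.93 ± 0.15 (SE, adjusted p = 2.1e-05) and -0.98 in the DMSO arm. Unstressed libraries had 38.7 to 82.7 CPM of Fkbp5 with DMSO and 55.1 to 67.8 CPM with 4sU, a range that holds the chronic libraries and that the acute ones exceed. The same held for Nfkbia, at 18.6 to 32.6 CPM with DMSO and 21.9 to 29.4 CPM with 4sU, and for Ddit4, at 35.9 to 75.1 CPM with DMSO and 48.1 to 63.9 CPM with 4sU, except that Nfkbia had 16.4 CPM in 1 chronic library.

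Other members also fell. Arrdc2 (chr8:70835138-70839720), an arrestin-domain protein, had 17.9, 16.6, 39.6 and 26.2 CPM in chronic stress 4sU libraries against 62.8, 73.2, 63.1, 62.3 and 60.1 CPM in acute ones. Its log2 fold change was -1.36 ± 0.28 (SE, adjusted p = 0.00028), and -1.99 in the DMSO arm. Arl4d, a small GTPase of the ARF family, had 8.19, 9.63, 20.8 and 24.9 CPM in chronic and 31.9, 38.4, 42.6, 45.1 and 38.0 CPM in acute stress 4sU libraries (log2 fold change -1.30, and -1.48 in the DMSO arm). The kinase gene Map3k6 (chr4:133240818-133252928), one of those with the response element letters, had 3.17, 5.12, 7.04 and 5.44 CPM in chronic and 13.2, 12.8, 8.98, 13.7 and 10.9 CPM in acute stress 4sU libraries (-1.20, and -1.16 in the DMSO arm). None of these 3 genes had overlapping groups. Plekhf1, Errfi1 (an inhibitor of the EGF receptor), the transcription factor Klf15, the lipid transporter Mfsd2a and Txnip fell by 0.87, 0.78, 0.75, 0.71 and 0.66 on the log2 scale in 4sU libraries. All 5 also fell in the DMSO arm, by 1.35, 1.09, 0.55, 0.79 and 0.95. Txnip (chr3:96557957-96561857), whose promoter window holds the response element letters, had 25.4, 17.7, 18.4 and 21.6 CPM in chronic and 37.3, 36.5, 30.5, 30.4 and 29.6 CPM in acute stress 4sU libraries. The Wnt receptor Fzd2, not on the list, also fell in both arms, at 11.6, 12.6, 22.2 and 19.2 CPM in chronic and 32.6, 31.8, 31.8, 33.2 and 30.2 CPM in acute stress 4sU libraries (-0.96, and -0.97 in the DMSO arm).

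Sgk1 (chr10:21882184-21999902), a kinase that regulates ion transport, had 111, 107, 284 and 195 CPM in chronic stress 4sU libraries and 294, 302, 282, 289 and 294 CPM in acute ones. Chronic library 3 lay within the acute range while the other chronic libraries lay below it. The log2 fold change of -0.75 ± 0.31 (SE) missed the threshold (adjusted p = 0.053), and without chronic library 3 it passed at -1.09. In the DMSO arm Sgk1 had 165, 164 and 127 CPM after chronic and 388, 509, 653, 507 and 404 CPM after acute stress (log2 fold change -1.70, adjusted p = 0.013). The cell cycle inhibitor Cdkn1a was placed alike, at 10.96, 18.7, 29.0 and 21.3 CPM in chronic and 33.9, 38.2, 30.2, 32.6 and 26.8 CPM in acute stress 4sU libraries. Its log2 fold change was -0.69 (adjusted p = 0.055), and without chronic library 3 it passed at -0.93.

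A few classical targets behaved differently in the 2 arms. Tsc22d3, the glucocorticoid-induced leucine zipper, had 86.4, 85.7, 98.8 and 99.6 CPM in chronic and 101, 108, 93.3, 91.8 and 98.8 CPM in acute stress 4sU libraries. The groups overlapped and the log2 fold change of -0.09 ± 0.14 (SE) did not pass (adjusted p = 0.63). Tsc22d3 fell by 1.23 in the DMSO arm, at 78.2, 84.3 and 66.3 CPM after chronic and 131, 252, 196, 166 and 147 CPM after acute stress. The difference between arms was 1.14 (adjusted p = 0.00024), and the baseline contrast was 0.71. Arrdc3, the list's only riser, had 113, 91.7, 119 and 108 CPM in chronic and 73.7, 71.8, 61.9, 64.4 and 59.9 CPM in acute stress 4sU libraries. It rose by 0.70 ± 0.12 (SE, adjusted p = 4.7e-05) there and fell by 0.84 in the DMSO arm, with a baseline contrast of 1.04 and a difference between arms of 1.54 (adjusted p = 1.5e-06). Per1, a clock gene under glucocorticoid control, went the other way: it had 64.5, 75.8, 90.3 and 90.7 CPM in chronic and 129.8, 129.7, 125, 138 and 131 CPM in acute stress 4sU libraries. That is a log2 fold change of -0.70 (adjusted p = 2.7e-06), against -0.14 in the DMSO arm (adjusted p = 0.61), and the arms differed by -0.56 (adjusted p = 0.0047). In 3' UTR reads Per1 was at -0.26 with no call.

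The metallothioneins Mt1 and Mt2, near-identical metal-binding proteins whose reads may be shared, fell by 0.81 and 0.67. Mt1 (chr8:94179089-94180327) had 130.1, 132, 141 and 121 CPM in chronic and 199, 197, 248, 257 and 250.2 CPM in acute stress 4sU libraries, with a baseline contrast of -0.95. The transcription factor gene Cebpb had 4.56, 4.14, 2.48 and 5.02 CPM in chronic and 9.99, 5.93, 11.8, 13.6 and 10.6 CPM in acute stress 4sU libraries. It fell by 1.36 in exon counts, but by 0.08 with no call in the 3' UTR reads. Cebpd fell by 1.34, Sesn1 by 0.28 and Pdk4 by 0.57, and the Pdk4 call was lost without any 1 of 5 of the 9 libraries. Nr3c1, the glucocorticoid receptor itself, had 98.6, 97.0, 108 and 100.2 CPM in chronic and 70.4, 74.3, 63.9, 63.3 and 63.2 CPM in acute stress 4sU libraries. It rose by 0.59 ± 0.10 (SE, adjusted p = 4.6e-05), with a baseline contrast of 0.55 and 0.09 in the DMSO arm. The mineralocorticoid receptor gene Nr3c2 (log2 fold change 0.04) and the stress peptide gene Crh (-0.08) did not pass.

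**Figure D3:**
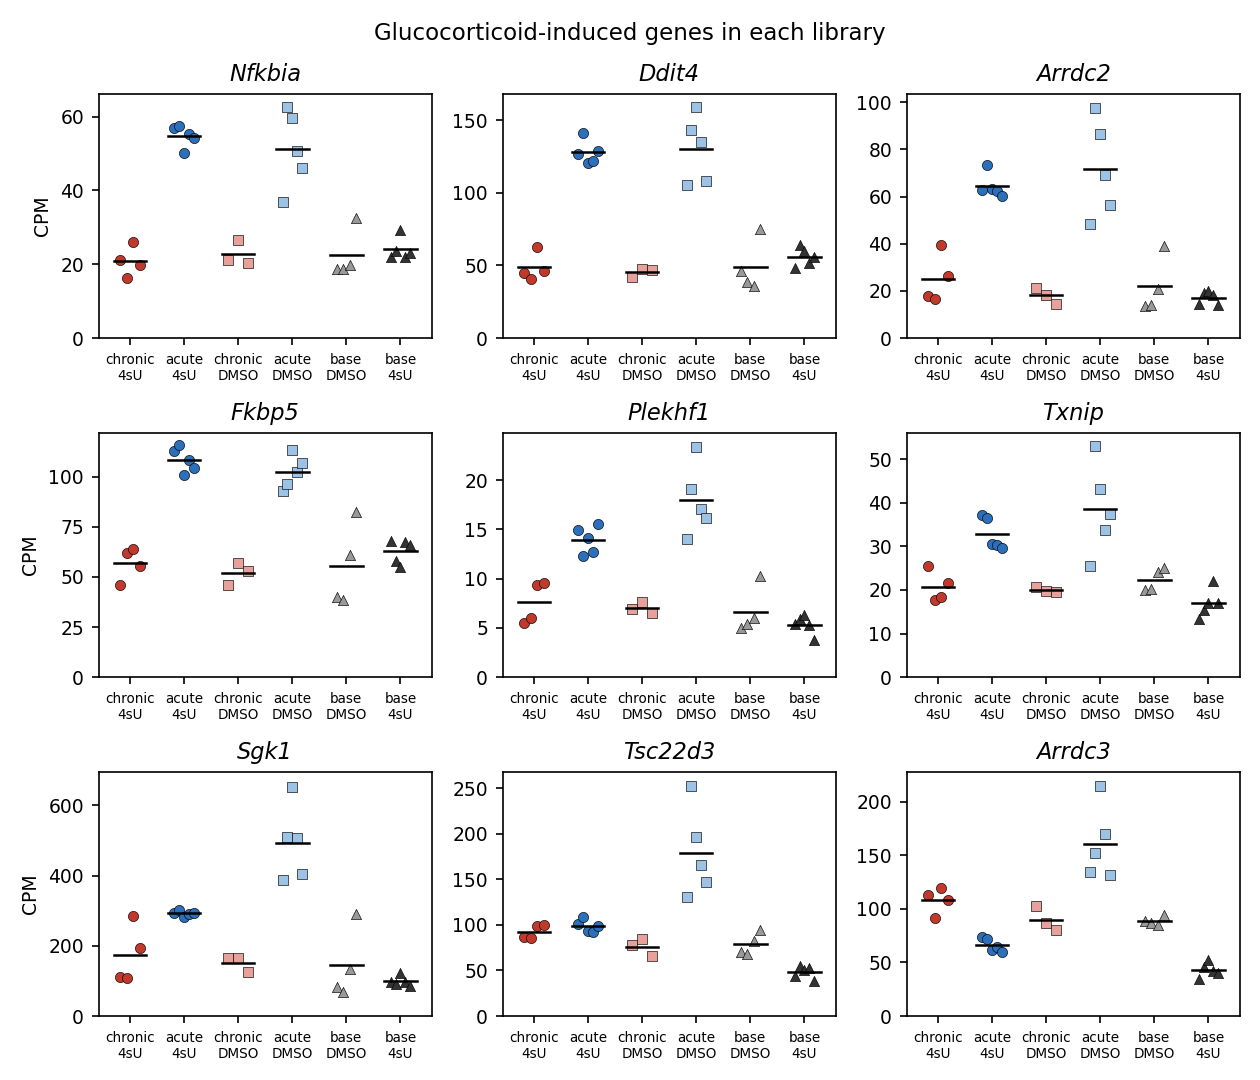
Expression (CPM) of 9 glucocorticoid-induced genes in the 26 amygdala libraries by group. Points are libraries and bars are group means. Nfkbia, Ddit4 and Fkbp5 are lower in every chronic stress 4sU library than in any acute one, and Sgk1 overlaps through 1 chronic library at 284 CPM.

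For Nfkbia the 2 kinds of reads disagreed. It had 24.6 to 29.0 UTR reads per 100 exon counts in chronic and 3.69 to 5.12 in acute stress 4sU libraries. The baseline groups split the same way with no stress, at 22.4 to 26.1 with DMSO and 2.70 to 5.93 with 4sU. In UTR reads alone Nfkbia was higher in chronic stress 4sU libraries, with a log2 fold change of 0.98. Within the DMSO arm, which lies in 1 header sequence, the ratio was 25.8 to 29.9 after chronic and 20.9 to 32.5 after acute stress. Fzd2 had 32.3 to 34.1 in chronic and 11.1 to 16.9 in acute stress 4sU libraries, and Ddit4 39.1 to 44.0 and 20.9 to 22.9. Fkbp5 (50.8 to 55.8 and 52.2 to 58.6) and Sgk1 (35.2 to 38.8 and 33.0 to 39.1) had overlapping ratios in chronic and acute stress 4sU libraries. In UTR reads 18 of 31 glucocorticoid-induced genes measured fell and 3 rose.

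Many immediate early genes were lower after chronic than after acute stress in 4sU libraries. Of 33 tested, 18 fell and 1 rose, with a median log2 fold change of -0.60, while 23.3% of all genes were called lower and 23.9% higher. The median was 0.10 in the DMSO arm and 0.07 in the additive fit. The baseline contrast called 10 lower and 1 higher with a median of -0.45. Of the 33, 9 differed between arms, all downward. Glutamatergic neuron markers were also lower in the chronic group. Their mean log2 CPM score was 5.39, 5.39, 4.67 and 4.66 in chronic and 5.51 to 5.79 in acute stress 4sU libraries. Their part in the result was not tested.

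Nptx2, a secreted pentraxin that clusters AMPA receptors, had 11.3, 12.8, 15.4 and 16.02 CPM in chronic and 31.6, 28.0, 42.8, 73.3 and 38.4 CPM in acute stress 4sU libraries. The groups were separate, with a log2 fold change of -1.62 ± 0.24 (SE, adjusted p = 7.1e-06), and the baseline contrast was -1.05. The transcription factor gene Egr4 had 11.1, 14.2, 16.4 and 22.1 CPM in chronic and 33.6, 32.6, 33.3, 62.7 and 32.6 CPM in acute stress 4sU libraries (-1.29, adjusted p = 4.9e-05). Its arms differed by -1.21 (adjusted p = 0.0069). Ier5l fell by 1.64, at 5.19, 7.13, 6.98 and 9.46 CPM in chronic and 21.2, 21.1, 23.6, 24.6 and 21.4 CPM in acute stress 4sU libraries, with a baseline contrast of -0.85. Sik1, a kinase that restrains CREB-driven transcription, had 14.1, 11.6, 14.5 and 15.2 CPM in chronic and 29.4, 31.0, 26.2, 29.6 and 25.6 CPM in acute stress 4sU libraries (-1.03, adjusted p = 7e-07). The best known members did not pass: Fos had a log2 fold change of -0.36, Egr1 -0.40, Arc -0.10, Npas4 0.07 and Bdnf -0.12. Nr4a1 had 27.2, 33.1, 29.99 and 73.9 CPM in chronic and 42.6, 46.2, 49.7, 57.2 and 51.3 CPM in acute stress 4sU libraries (-0.27). Chronic library 4 decided both Nr4a1 and Arc, which passed without it at -0.71 and -0.59.

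Of 20 circadian clock genes 9 fell and 3 rose in 4sU libraries (median -0.20), beside 23.3% and 23.9% of all genes, and 4 were lower and 3 higher in the baseline contrast, with a median of -0.09 in the DMSO arm. Nr1d1, the clock repressor REV-ERB alpha, had 68.6, 74.6, 77.0 and 73.6 CPM in chronic and 150.5, 118, 154, 166 and 152 CPM in acute stress 4sU libraries. It fell by 1.01 ± 0.11 (SE, adjusted p = 1e-07) with a baseline contrast of -0.73 and -0.08 in the DMSO arm. Bhlhe40 fell by 0.58 and Cry2 by 0.61.

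The glutamatergic, presynaptic and postsynaptic lists had medians below 0 in 4sU libraries and in the baseline contrast, where 23.3% and 20.9% of all genes were called lower. Of 20 glutamatergic markers 6 fell and 2 rose (median -0.53, baseline -0.59), of 23 presynaptic genes 10 fell and 2 rose (-0.24, baseline -0.31), and of 27 postsynaptic genes 13 fell and 3 rose (-0.31, baseline -0.29). The glutamatergic list had a median of 0.18 and the postsynaptic list of 0.08 in the DMSO arm. Grin1, the obligatory subunit of NMDA receptors, had 228, 247, 303 and 261 CPM in chronic and 474, 470.2, 462, 488 and 432 CPM in acute stress 4sU libraries (log2 fold change -0.84, adjusted p = 1.4e-06). The adhesion protein Nrxn2 fell by 0.79 and the release factor Unc13a by 0.78. Slc17a7, the vesicular glutamate transporter of cortical-type neurons, had 482, 535, 113 and 193 CPM in chronic and 686, 455, 743, 571 and 915 CPM in acute stress 4sU libraries. The groups overlapped, and the value of -1.03 ± 0.74 (SE) did not pass (adjusted p = 0.27). In bulk tissue, fewer cells of a type and less RNA per cell cannot be told apart. Rspo1, a glutamatergic marker that amplifies Wnt signalling, fell by 1.34, and was at -0.99 with no call with the UTR share as a covariate.

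Of 20 GABAergic markers 7 fell and 2 rose in 4sU libraries (median -0.17, baseline -0.29), beside 23.3% and 23.9% of all genes. Slc32a1, which loads GABA into vesicles, fell by 0.94, and Gad1, which makes GABA, rose by 0.26. In 3' UTR reads Slc32a1 was at -0.20 with no call, and the Gad1 call was lost without acute library 3, chronic library 3 or chronic library 4 and with the UTR share as a covariate. Of 14 GABA-A receptor subunit genes 6 rose, none fell and 8 did not pass, beside 23.9% of all genes higher, and 13 values were above 0 (median 0.36, baseline 0.30). Among them Gabra2 rose by 0.55.

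Of 23 neuropeptide genes 3 rose and 3 fell in 4sU libraries, where 23.9% of all genes rose and 23.3% fell. Somatostatin (Sst) had 142, 165, 178 and 152 CPM in chronic and 253, 263, 314, 323 and 331 CPM in acute stress 4sU libraries (log2 fold change -0.90, adjusted p = 1.4e-05), and Npy fell by 0.92. Pmch, the melanin-concentrating hormone of lateral hypothalamic neurons, showed the highest rise, at 87.9, 9.14, 72.6 and 15.6 CPM in chronic and 5.73, 8.74, 0.386, 0.0529 and 1.22 CPM in acute stress 4sU libraries. All chronic values exceeded the acute ones, the closest being 9.14 and 8.74 CPM, and the log2 fold change was 3.84 ± 0.87 (SE, adjusted p = 0.00094). Of 19 hypothalamic and thalamic markers 6 rose and 1 fell (median 0.22). Among them Lhx1 had 4.79, 2.07, 1.95 and 3.37 CPM in chronic and 0.27, 0.624, 0.338, 0.106 and 0.723 CPM in acute stress 4sU libraries (2.87, adjusted p = 1e-05). Hcrt, the orexin gene of the same hypothalamic region as Pmch, ranged over 1.16–11.7 CPM in chronic and 0.0557–1.87 CPM in acute stress 4sU libraries. The part of tissue beside the amygdala in these values was not tested.

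Of 25 neuromodulator and peptide receptors 10 fell and 2 rose (median -0.43, baseline -0.24), beside 23.3% and 23.9% of all genes. The baseline contrast called 7 of them lower and 1 higher, beside 20.9% and 22.2% of all genes. Sstr2, a somatostatin receptor, had 8.02, 10.7, 7.51 and 7.21 CPM in chronic and 21.6, 20.8, 24.3, 27.8 and 26.3 CPM in acute stress 4sU libraries. It fell by 1.53 ± 0.19 (SE, adjusted p = 3.4e-07), and its value was -0.38 in the baseline contrast, where it did not pass. The oxytocin receptor gene Oxtr had 10.4, 12.4, 9.11 and 9.22 CPM in chronic and 19.8, 20.2, 15.4, 17.9 and 14.9 CPM in acute stress 4sU libraries (-0.78, adjusted p = 4.2e-05). Cckbr, the cholecystokinin B receptor, had 7.21, 10.1, 8.16 and 13.6 CPM in chronic and 19.6, 19.0, 20.6, 20.9 and 16.4 CPM in acute stress 4sU libraries. It fell by 0.98 there and rose by 0.66 in the DMSO arm, and the arms differed by -1.64. Vipr1 fell by 1.00, the potassium channel Kcnh3 by 1.24 and the calcium channel subunit Cacnb3 by 0.92.

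Most myelin and oligodendrocyte genes were higher after chronic than after acute stress in 4sU libraries. There 17 of 19 rose and none fell, with a median of 1.22, while 23.9% of all genes rose. In the DMSO arm 8 fell, 11 did not pass and none rose (median -0.57), where 1.07% of all genes fell, and in the baseline contrast 16 were higher and none lower (median 0.85). The difference between arms was called for 18, all upward (median 1.87), and the additive fit called 1 lower and none higher. Against each group's own baseline the median was 0.37. The mean log2 CPM score of the list was 8.61 to 8.96 in chronic and 7.48 to 7.77 in acute stress 4sU libraries.

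Mal (chr2:127633226-127656695), a myelin proteolipid, had 1019, 914, 900.0 and 893 CPM in chronic and 319, 356, 272, 279 and 277 CPM in acute stress 4sU libraries. The groups were far apart, with a log2 fold change of 1.63 ± 0.12 (SE, adjusted p = 2.4e-10). The value was -0.70 in the DMSO arm and 1.22 in the baseline contrast. Tspan2, an oligodendrocyte tetraspanin, had 516, 459, 473 and 452 CPM in chronic and 162, 160.4, 113, 120.5 and 127 CPM in acute stress 4sU libraries (1.80, -0.69 in the DMSO arm). Mbp, myelin basic protein, had 8530.0, 7231, 7153 and 7385 CPM in chronic and 4100.1, 4584, 3907, 3991 and 4235 CPM in acute stress 4sU libraries (0.86). DMSO libraries had 6408, 5608 and 5177 CPM after chronic and 7283, 10331, 10378, 8890.3 and 6674 CPM after acute stress (-0.60, adjusted p = 0.012). Opalin, Ugt8a (which makes the myelin lipid galactocerebroside), Nkx2-2, Aspa, Enpp6 and Gjc3 rose by 1.86, 1.83, 1.78, 1.75, 1.68 and 1.64 in 4sU libraries.

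Other glial lists moved less evenly in 4sU libraries, where 23.9% of all genes rose and 23.3% fell. Of 17 astrocyte genes 7 rose and 5 fell (median 0.04), and of 18 microglia genes 5 rose and 5 fell (median 0.03). The water channel Aqp4 had 403, 256, 181 and 220.3 CPM in chronic and 137, 122, 126, 134 and 129.7 CPM in acute stress 4sU libraries (log2 fold change 1.03, adjusted p = 1.5e-05). The microglial receptor P2ry12 had 49.8, 40.0, 41.1 and 40.9 CPM in chronic and 20.7, 22.1, 22.5, 21.6 and 24.1 CPM in acute stress 4sU libraries (0.95), and Gpr34 rose by 1.12. Aqp4, P2ry12 and Gpr34 are all risers, and the astrocyte and microglia genes that fell are not shown. Gfap had a value of 0.04 that did not pass (adjusted p = 0.91). Of 18 reactive glia genes 1 rose and 3 fell in 4sU libraries (median -0.31), and 3 rose in the DMSO arm (median 0.69), where 0.711% of all genes rose. In the difference between arms 8 were called lower and 1 higher, beside 14.6% and 16.8% of all genes. Oligodendrocyte precursor genes numbered 13, of which 5 rose and 3 fell.

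Of 20 endothelial genes 11 rose and 2 fell in 4sU libraries (median 0.43), where 23.9% of all genes rose. The baseline contrast called 13 higher and none lower (median 0.56), where 22.2% of all genes were higher. In the DMSO arm 3 rose and 2 fell (median 0.05), beside 0.711% and 1.07% of all genes. Both arms called 2 members higher and 2 other members lower, and those 2 lower ones are not named here. Cldn5 (chr16:18776847-18778262), a tight junction protein of the blood-brain barrier, was called higher in both arms and not at baseline. It had 35.8, 32.0, 25.6 and 27.7 CPM in chronic and 19.7, 19.6, 15.7, 12.4 and 12.1 CPM in acute stress 4sU libraries. The log2 fold change was 0.93 ± 0.19 (SE, adjusted p = 0.00037). In the DMSO arm it had 30.9, 31.8 and 29.2 CPM after chronic and 17.4, 23.0, 9.94, 10.004 and 11.2 CPM after acute stress, a log2 fold change of 1.10 (adjusted p = 0.0057), and the baseline contrast was 0.07. The transporter Slco1a4 had 95.0, 87.1, 92.9 and 90.1 CPM in chronic and 42.8, 34.8, 21.3, 18.1 and 21.6 CPM in acute stress 4sU libraries (1.72), with a baseline contrast of 1.41, and Tek rose by 1.054. Choroid plexus markers were uneven between libraries: Ttr had 1941, 2702, 344 and 2945 CPM in chronic and 2081, 1455, 3115, 2399 and 1629 CPM in acute stress 4sU libraries, and the median of 16 such genes was -0.07, against 1.04 in the DMSO arm.

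Genes called in the same direction in both arms and not so in the baseline contrast numbered 50 of 16310 tested, of which 40 were lower and 10 higher after chronic stress. These counts rest on the DMSO arm, where a fit of its 2 groups alone called 0 genes by edgeR. Of the 40 lower, 14 were on the glucocorticoid list, which has 32 tested members. Besides Cldn5, the named risers among them were the astrocyte and progenitor factor Sox9 (0.46, and 0.78 in the DMSO arm), the RNA-decay factor Zfp36l1 (0.50 and 0.47), the cytokine receptor subunit Il10rb (0.41 and 0.57) and the nuclear RNA Neat1 (0.49 and 0.77). The groups of Neat1 overlapped, at 207–361 CPM in chronic and 135–224 CPM in acute stress 4sU libraries. Sox9 missed the threshold without chronic library 1, at 0.32, and Neat1 without chronic library 1, at 0.32, or acute library 1, at 0.39. Il10rb was at 0.39 with no call in 3' UTR reads.

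The largest changes in 4sU libraries that separated the groups included genes of several kinds. Trim59, a ubiquitin ligase, had 60.0, 54.1, 45.02 and 52.5 CPM in chronic and 9.83, 9.47, 8.88, 8.78 and 9.79 CPM in acute stress 4sU libraries. It rose by 2.50 ± 0.16 (SE, adjusted p = 2.2e-11), by 0.71 in the DMSO arm, and the baseline contrast was 1.30. Sycp3, a meiotic chromosome protein, the interferon-inducible Gbp9 and the hyaluronan-binding Tnfaip6 rose by 1.81, 1.78 and 1.78. Among falls, Nptxr, the pentraxin receptor, had 24.4, 28.8, 7.10 and 10.8 CPM in chronic and 119, 72.4, 109.6, 90.0 and 109 CPM in acute stress 4sU libraries (-2.49, adjusted p = 0.00045). Its baseline contrast was -1.96, and in UTR reads the value was -1.19 with no call. Ppp1r3g, a glycogen-targeting phosphatase subunit, had 1.44, 2.25, 3.96 and 4.197 CPM in chronic and 9.29, 10.04, 10.04, 11.5 and 10.9 CPM in acute stress 4sU libraries (-1.80, and -1.09 in the DMSO arm). The Nogo receptor genes Rtn4rl2 and Rtn4r, the related Lingo3, the synaptic zinc transporter Slc30a3 and the zinc finger gene Zfp853 fell by 1.898, 1.46, 1.46, 1.49 and 1.51. Rtn4rl2, Rtn4r and Slc30a3 lost the call without chronic libraries 3 and 4. Leaving out chronic library 3 alone ended the call of Rtn4rl2 and Rtn4r, and that of Rtn4r also ended without chronic library 4 or acute library 5. Zfp853 was at -0.14 with no call in 3' UTR reads, and Lingo3 at -0.98 with no call with the UTR share as a covariate.

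RNA-processing genes rose along with the baseline contrast, in 4sU libraries where 23.9% of all genes were called higher and 23.3% lower. Of 40 spliceosome genes 23 rose and 7 fell (median 0.26, baseline 0.34), and of 20 polyadenylation genes 12 rose and 4 fell (median 0.24). Srsf5, a splicing factor, had 355, 371, 382 and 349 CPM in chronic and 187, 220.3, 194, 204 and 206 CPM in acute stress 4sU libraries (log2 fold change 0.85, adjusted p = 3.2e-10). Clk1 rose by 0.87, Srsf1 by 0.74, Pabpn1 by 0.94 and Cpsf6 by 0.67, and Sympk fell by 0.52. Of 19 nuclear long noncoding RNAs 11 rose and 1 fell (median 0.41), Malat1 by 0.48, a call lost without any 1 of 5 libraries. Y-linked genes, whose reads may be shared with X-linked copies, rose in all 4 cases (median 1.00, baseline 0.96), and the DMSO arm had a median of 0.03. Eif2s3y had 86.6, 90.7, 87.1 and 72.8 CPM in chronic and 36.5, 40.6, 28.3, 32.0 and 38.4 CPM in acute stress 4sU libraries, and Ddx3y rose by 1.18. Ribosomal protein genes were mixed, with 6 of 51 higher and 11 lower, and Rplp1, which has near-identical copies, fell by 1.054. Of 22 cholesterol synthesis genes 9 rose and 7 fell, Idi1 rising by 0.93 and Srebf2 falling by 0.86.

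**Figure D4:**
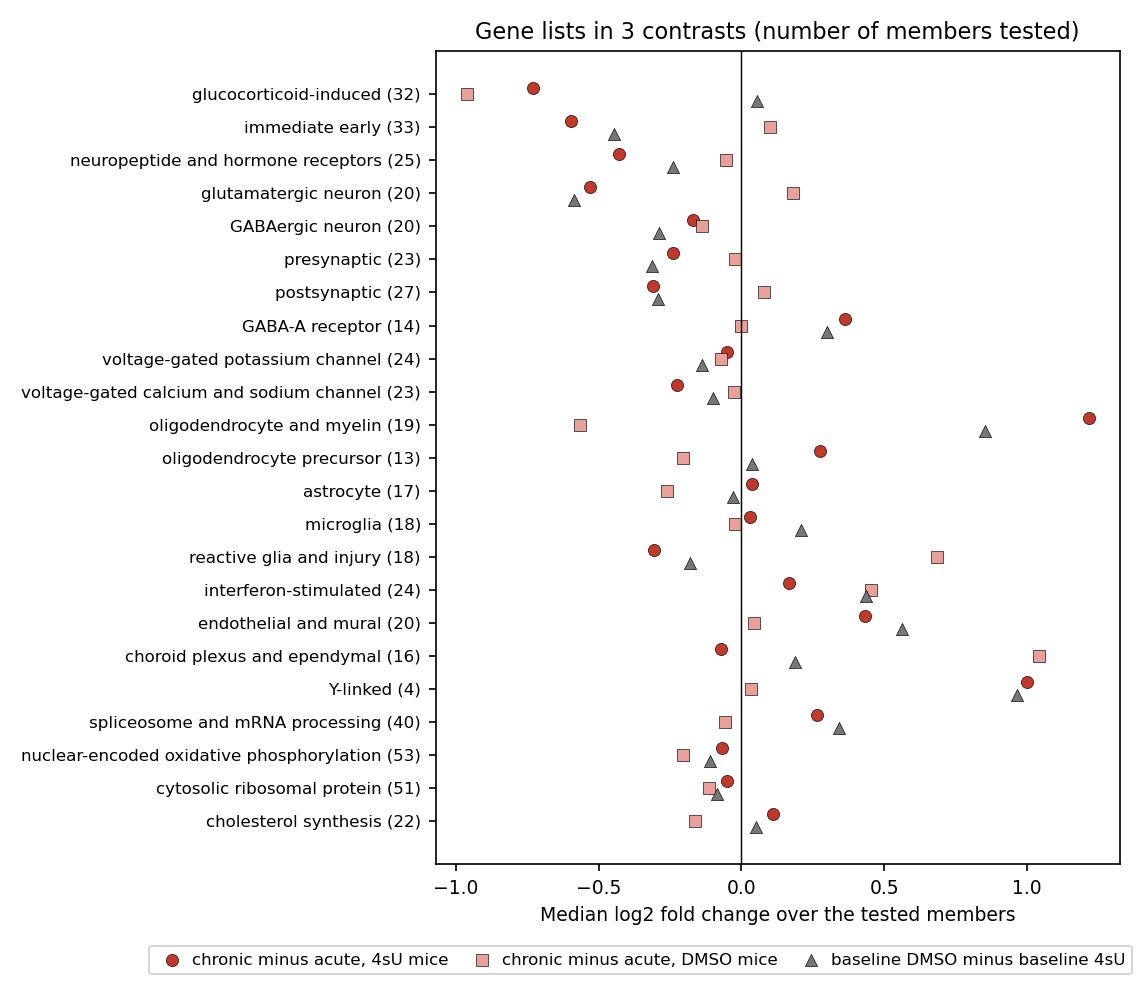
Median log2 fold change of each gene list for chronic over acute stress in 4sU libraries, for chronic over acute stress in the DMSO arm and for baseline DMSO over baseline 4sU libraries. The glucocorticoid-induced list lies at -0.73, -0.96 and 0.05 in these 3 contrasts, and the oligodendrocyte and myelin list at 1.22, -0.57 and 0.85.

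Fold changes in 4sU libraries followed the length of the 3' UTR. Over 5 bins of equal gene number, shortest to longest, the median log2 fold change was -0.13, -0.15, -0.05, 0.05 and 0.16. The baseline contrast gave -0.08, -0.12, -0.04, 0.08 and 0.16, and in the DMSO arm medians lay between -0.04 and 0.01. The share of genes called higher in 4sU libraries was 13.1% in the shortest and 36.2% in the longest bin.

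T-to-C conversion, the sign of RNA made after the injection, was higher in the 4sU libraries than in DMSO libraries, where no label was given. It was 4.86, 6.99, 5.44 and 7.78 per 10000 covered T in chronic and 6.20, 4.76, 5.26, 4.63 and 4.00 in acute stress 4sU libraries. The groups overlapped, at 6.27 ± 1.35 and 4.97 ± 0.822 (SD), and the difference of 1.30 did not pass an exact permutation test (two-sided p = 0.111). DMSO libraries gave the background, 2.36, 2.64 and 2.51 after chronic and 2.73, 2.42, 2.28, 2.38 and 2.29 after acute stress (difference 0.0846, exact permutation p = 0.536). The rate of the median gene was 3.37 in chronic and 2.82 in acute stress 4sU libraries (exact permutation p = 0.0635). Genes with a rate more than 10 per 10000 above background numbered 329 in chronic and 112 in acute stress 4sU libraries, of which 75 were in both.

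Of 8662 genes with enough covered T, relative to each library's own rate, 9 were converted more (0.104%) and 8 less (0.0924%) after chronic than after acute stress, 0.196% in either direction. By edgeR 737 passed an unadjusted p under 0.05. For the DMSO arm edgeR called 0 genes, with 436 at an unadjusted p under 0.05. The 9 were Phlda3, Lars2, Slc25a4, Ncan, Fth1, Cnp, Cldn11, Mal and Setd7, and the 8 were Dpy19l1, Trnt1, Dzip3, Luc7l3, Nr1d1, Rbfox1, Cpe and Gpm6b. Of these 17, 7 had a background above 5 per 10000 without any label, 6 of them among the lower ones. Among 8340 genes below that background, 4 were called: Mal, Lars2 and Ncan higher and Gpm6b lower. For the 6 lower genes above it, baseline 4sU libraries lay nearer acute stress 4sU libraries, and baseline DMSO libraries nearer chronic ones. Trnt1 had 52.3 and 22.9 conversions per 10000 T at baseline with 4sU and DMSO, and 47.6 in acute and 24.8 in chronic stress 4sU libraries. The baseline groups also differ in label.

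Mal was the myelin gene with the clearest change in conversion, at 18.1, 24.1, 18.6 and 34.1 conversions per 10000 T in chronic and 15.2, 9.1, 13.3, 8.89 and 7.09 in acute stress 4sU libraries. Its groups did not overlap, the background in DMSO stress libraries was 1.80 to 2.58, and the log2 ratio relative to the library rate was 0.82 ± 0.14 (SE, adjusted p = 1.6e-05). Ncan, a proteoglycan of the extracellular matrix, had 14.7, 8.38, 12.1 and 10.6 in chronic and 3.21, 3.67, 3.85, 4.44 and 3.37 in acute stress 4sU libraries (1.32, adjusted p = 0.0036). Without chronic library 1 its value was 1.06 and the call was lost. Lars2, a mitochondrial leucyl-tRNA synthetase, had 1.29, 8.38, 3.38 and 64.6 in chronic and 4.6, 3.8, 1.8, 3.22 and 3.79 in acute stress 4sU libraries, so 1 library set its value of 1.97, which was 0.09 without it. Gpm6b, a proteolipid of neurons and glia, had 12.4, 21.1, 14.9 and 22.2 in chronic and 24.2, 17.1, 21, 21.5 and 16.2 in acute stress 4sU libraries. These overlap, and its -0.53 relative to the library rate was -0.18 without that scaling. Nr1d1 had 205, 180, 178 and 177 in chronic and 238, 236, 273, 276 and 260 in acute stress 4sU libraries, but DMSO libraries already had 154 to 211, so that its mismatches were present without label. With no stress Nr1d1 had 234 to 263 in baseline 4sU and 161 to 214 in baseline DMSO libraries.

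Few members of the lists above were called in conversion. Of 18 myelin and oligodendrocyte genes measured 3 were converted more and none less, with a median log2 ratio of 0.07. The median rate of this list was 7.88 per 10000 T in chronic and 5.79 in acute stress 4sU libraries. Mbp did not pass, at 0.07. No glucocorticoid-induced gene was among the 17 calls, and the median of the 23 measured was -0.08. No immediate early gene of 21 measured was among them either.

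**Figure D5:**
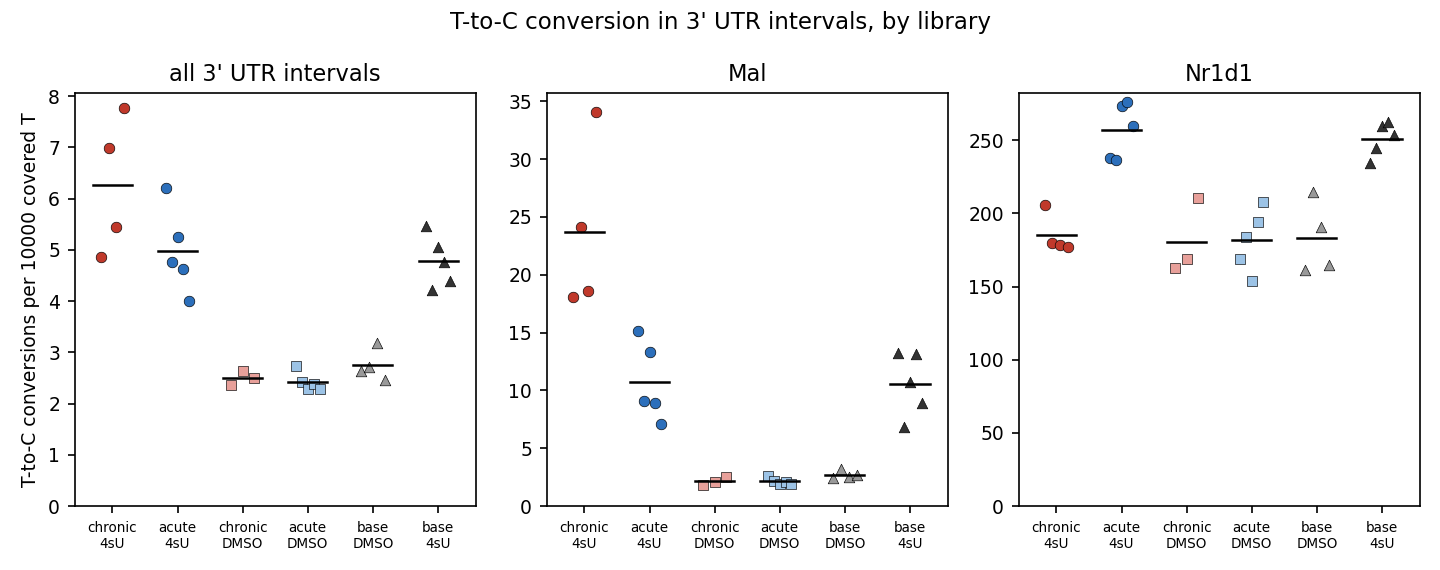
T-to-C conversions per 10000 covered T by group for all 3' UTR intervals, Mal and Nr1d1; points are libraries and bars are group means. DMSO groups give the background at 2.28 to 2.73 in stress libraries, and Mal lies higher in every chronic stress 4sU library than in any acute one.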

How the data were processed

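Per the submitters' processing notes, the tools named for these libraries are cutadapt 3.1, HISAT2 2.1.0, SAMtools 1.9, featureCounts 2.0.1 and slamdunk 0.4.3, with build mm10; none of these sources states their settings or the strand counted, which leaves overlapping and antisense genes uncertain. The authors deposited whole-number exon counts per gene symbol, and the slamdunk tables hold counts of reads, covered T positions and T-to-C conversions per 3' UTR interval, per the file headers. The conversion rate is deposited as a fraction and was recomputed from those counts. The 9 baseline columns present in both exon tables differed in 0 values. CPM were computed from the deposited counts.

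For expression, all 26 amygdala libraries entered 1 robust quasi-likelihood fit (edgeR 4.0.16, TMM scaling and filterByExpr, R 4.3.3), and conversions were tested likewise on the interval with the most covered T of each gene, with the covered T as offset, rescaled to each library's rate, from a mean of 2000 covered T. DESeq2 1.42.0 was an alternative. Single values per library were compared with exact permutation tests. The statistics were tested on simulated data. Named genes were the 10 largest rises and falls with non-overlapping groups and at least 5 CPM, up to 6 in each direction called in both arms and not at baseline, fixed stress and cell genes, up to 4 genes per list by smallest p, and the conversion calls; Outside this rule, Prkcd and the glucocorticoid-induced genes Arrdc3, Cdkn1a, Cebpb, Cebpd, Errfi1, Mfsd2a, Mt1, Mt2, Pdk4, Plekhf1 and Txnip were chosen after their values were seen. Some genes that the rule names are not reported here. Members, lists and genes were chosen with earlier results of these data known. Covered T ran from 244925276 to 308247356 per library. The labels describe no molecular identifiers, so reads are not taken as independent molecules.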

Additional observations from a re-analysis of the deposited data

Results flagged for a closer look

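In 13 of 204 groups of a named gene's CPM, 1 library stood apart from the others by Dixon's 95% criterion; chance gives about 1 in 20. In chronic stress 4sU library 4, Nr4a1 had 73.89 CPM, against 27.17 to 33.08 in the other 3, and Unc13a had 226.3 CPM, against 243.4 to 244.7. In chronic stress 4sU library 1, Mbp had 8530 CPM (the other 3 had 7153 to 7385), Mal 1019 (893 to 913.6), Nkx2-2 13.61 (10.17 to 10.47), P2ry12 49.79 (39.97 to 41.06) and Srebf2 170.9 (151.5 to 154.6). In acute stress 4sU library 2, Arrdc2 had 73.22 CPM (the other 4 had 60.1 to 63.12) and Sesn1 68.53 (62.88 to 63.28). In acute stress 4sU library 4, Egr4 had 62.72 CPM (32.56 to 33.6) and Egr1 191.7 (112.7 to 129.6). Sycp3 had 1.737 CPM in acute library 3 (2.81 to 3.228), and Cpsf6 106.2 CPM in acute library 1 (95.07 to 97.45).

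The chronic minus acute effect differed between the 4sU and the DMSO arm for 5117 genes by the test of the difference itself. For 5 named genes the arms were called in opposite directions. The difference, 4sU arm minus DMSO arm on the log2 scale, was 1.539 for Arrdc3, -1.64 for Cckbr, 1.468 for Mbp, 2.333 for Mal and 2.491 for Tspan2. The 4sU arm crosses the header sequences and the DMSO arm does not, so the arm and the crossing cannot be told apart.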

How the results depend on the processing

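With RLE scaling and with no filter on low counts, all 99 named genes kept direction and side of the threshold, and DESeq2 and the 2 groups alone kept 98 each. The additive fit, whose chronic side comes from the chronic DMSO libraries, called 165 genes. The 7700 calls in 4sU libraries were 0 against own baselines (edgeR, 684 at an unadjusted p under 0.05, DESeq2 18), and 0 also without baseline DMSO library 4 (549 unadjusted). Leaving out single libraries gave 7042 to 7440 calls, and UTR reads gave 6373. With the UTR share as a covariate 8465 genes were called in 4sU libraries. Of the 99 named genes, 91 then kept direction and side of the threshold, 6 lost the call and 2 gained it. The DMSO arm's 291 calls were 0 with its groups alone by edgeR (1020 at an unadjusted p under 0.05), 121 in UTR reads, 85 without libraries low in glutamatergic markers and 544 by DESeq2, and 45 to 638 without single libraries. Without single libraries, the arm difference ran from 4149 to 6710 calls and the baseline contrast from 6254 to 6718; over the other settings they ran from 3964 to 5396 and from 5990 to 9002. The 17 conversion calls were 42 with no rescaling (42 higher, none lower), 8 with all intervals summed, 4 at low background and 7 to 16 without single libraries. Overall conversion differed by 0.793 to 1.77 per 10000 T (DMSO arm 0.0139 to 0.162) and the UTR share by 2.45 to 2.99 percentage points without single libraries. Replicate numbers did not pair the libraries (correlations of deviations -0.105 to 0.206); with a replicate block, expression gave 7485 calls and conversion 10.

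Values of the additive fit take their chronic side from the chronic DMSO libraries. Some log2 fold changes turned sign, and the cause was not tested. In UTR reads these were Clk1 -0.30, Egr1 0.029, Nrxn2 0.067, Fzd2 0.088, Nr4a1 0.11, Bdnf 0.32, Rplp1 0.40 and Nfkbia 0.98. In the additive fit, risers were Aqp4 -0.023, Tnfaip6 -0.045, Clk1 -0.066, Opalin -0.086, Gad1 -0.10, Aspa -0.11, Gjc3 -0.21, P2ry12 -0.25, Sycp3 -0.25, Idi1 -0.26, Enpp6 -0.28, Ugt8a -0.44, Mbp -0.50, Mal -0.58, Tspan2 -0.59, Arrdc3 -0.78 and Pmch -1.92. Genes below 0 became Fos 0.072, Egr1 0.077, Slc30a3 0.085, Nr4a1 0.24, Rtn4rl2 0.25, Nptxr 0.28, Arc 0.40, Cckbr 0.42, Bdnf 0.43, Slc17a7 0.48 and Ttr 1.00. Against own baselines, Gad1 was -0.0020, Pabpn1 -0.0024, Clk1 -0.086, Gabra2 -0.25, Arrdc3 -0.34, Slc17a7 0.035, Sympk 0.051, Mt1 0.13, Nr4a1 0.13, Fos 0.15, Bdnf 0.36 and Arc 0.52. Without chronic libraries 3 and 4, Npas4 was -0.43, Bdnf 0.50 and Ttr 0.13. Without single libraries, genes near 0 ran from -0.34 to 0.22 (Gfap), -0.36 to 0.24 (Ttr), -0.59 to 0.092 (Arc), -0.42 to 0.14 (Bdnf) and -0.39 to 0.26 (Npas4). Glucocorticoid-induced genes lower in 4sU libraries numbered 18 to 25 across these fits, the own-baseline and additive ones aside.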

Other observations

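Other gene groups differed from each other in direction in 4sU libraries, where 23.9% of all genes were called higher and 23.3% lower. The baseline contrast called 22.2% of all genes higher. Of 24 interferon-stimulated genes 3 were higher and none lower after chronic than after acute stress (median log2 fold change 0.17). The baseline contrast called 7 of them higher, and the DMSO arm had a median of 0.45. Of 53 nuclear-encoded oxidative phosphorylation genes 9 were higher and 13 lower (median -0.07); the DMSO arm had 52 of 53 values below 0 with a median of -0.20. Heat shock genes numbered 26, of which 6 were higher and 7 lower, and p53 target genes 20, with 4 in each direction. Voltage-gated potassium channel genes were higher in 4 of 24 cases and lower in 9 (median -0.05). Calcium and sodium channel genes were higher in 2 of 23 and lower in 9 (median -0.23). Of 16 medium spiny neuron markers 1 was higher and none lower (median -0.24, baseline 0.21).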
